A study of Mus musculus with 15 samples.

Results

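The genes of cholesterol synthesis and uptake were followed in sorted mouse intestinal epithelial cells as a module of 29 genes, out of 27179 genes in the count table. The members were chosen by name: 8 enzymes of the mevalonate arm (Acat2, Hmgcs1, Mvk, Pmvk, Mvd, Idi1, Fdps, Ggps1), 11 enzymes from squalene to cholesterol (Fdft1, Sqle, Lss, Cyp51, Tm7sf2, Msmo1, Nsdhl, Hsd17b7, Ebp, Sc5d, Dhcr7), 3 genes of the sterol-sensing control system (Srebf2, Scap, Insig1), 3 genes of sterol transfer and esterification (Stard4, Soat1, Soat2) and 4 transporters (Npc1l1, Abca1, Abcg5, Abcg8). All 29 were found in the table, and all 29 passed the filter on low counts that left 13883 genes for testing. Every mouse carried the Lrig1-eGFP-IRES-CreERT2 reporter allele and the APCmin allele, a truncated Apc gene that gives intestinal tumors, so the normal epithelium also came from APCmin animals. Epithelial cells (EpCam+, CD45-, CD31-) were sorted by the eGFP signal into an Lrig1-high and an Lrig1-low fraction, from normal colonic epithelium or from dissected colonic tumors. The 4 groups were normal Lrig1-low (4 libraries, S01, S05, S09 and S13), normal Lrig1-high (4 libraries, S02, S06, S10 and S14), tumor Lrig1-low (3 libraries, S03, S07 and S11) and tumor Lrig1-high (3 libraries, S04, S08 and S12). Values in a group are listed below in this order of libraries. The labels give no age, sex, animal or batch. A p-value here reflects only how libraries varied within the groups, which may in part be technical. The spread was estimated over all 4 groups together, so a p-value also depends on groups outside its comparison. The eGFP marks cells by the activity of the Lrig1 locus, and each fraction held markers of several epithelial cell types.

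Cholesterol is built from acetyl-CoA through mevalonate, farnesyl diphosphate, squalene and lanosterol. When the endoplasmic reticulum runs low on sterol, SCAP escorts the transcription factor SREBP-2 (the product of Srebf2) to the Golgi for cleavage, and the released factor turns on the genes of synthesis, Srebf2 itself and Insig1, whose protein holds SCAP back. Absorptive cells of the small intestine also take up sterol from the gut lumen through NPC1L1, pump plant sterols and cholesterol back out through the ABCG5-ABCG8 dimer, esterify it with SOAT2 and release it to lipoproteins in part through ABCA1.

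The fitted libraries held 9508505 to 17296536 counts and 11995 to 16425 genes with a count, and the mitochondrial genome took 14.07% to 49.53% of counts. S12 (tumor Lrig1-high) had both the fewest genes and the highest mitochondrial share. S15, labelled tumor Lrig1-low, held 357 counts in all, none in any member, and was left out. Lrig1 itself was at 45.3 to 85.5 CPM (counts scaled to library size) in the normal Lrig1-low libraries and at 126 to 146 CPM in 3 of the normal Lrig1-high libraries. In tumors it was at 148 CPM in S04 and 72.6 CPM in S12 (Lrig1-high) and at 53.2 CPM in S03 and 43.0 CPM in S11 (Lrig1-low). It went against the sort label in S10 (labelled normal Lrig1-high, 36.4 CPM), S08 (labelled tumor Lrig1-high, 55.7 CPM) and S07 (labelled tumor Lrig1-low, 142 CPM), and S09 was the highest of the normal Lrig1-low libraries with 85.5 CPM. Fold changes and correlations of named genes are therefore given with and without these 4 libraries (S07 to S10). S09 did not go against its label, since it lay below the normal Lrig1-high libraries at 126 to 146 CPM. S12, at 72.6 CPM, lay below S09 and was not among the 4. No limit on the Lrig1 level was set before the data were seen, so leaving out S09 was a choice. It bears on Soat1 in the normal sort comparison, where leaving out S09 alone moved the log2 fold change from 1.44 to 2.26. The colonic label was checked as well. The colonocyte gene Car1 was at 0 in 12 of 14 libraries and reached 0.222 CPM, and Aqp8 was at 0 in 3 and reached 4.93 CPM. The summed level of the colonocyte markers, with 7 of the 8 listed genes in the count table, was 176 to 1031 CPM. Saa1, also on that list, was at 0 in 10 libraries and reached 3.10 CPM, so the sum rested on the other listed genes. It was highest in S01, S13, S05 and S10, the libraries with the highest sums of enterocyte markers. The small intestinal enterocyte gene Sis (sucrase-isomaltase) was at 102 to 3034 CPM and the Paneth cell gene Defa24 at 2.44 to 4621 CPM. Small intestinal markers were thus present in every library, and the part of this in the results below was not tested.

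The sequence before the start site is shown for 4 members, because their levels run through the results: Hmgcs1 and Msmo1 for synthesis, Insig1 for the control system and Npc1l1 for uptake. Each is the 250 bases before the RefSeq start site (build GRCm38.p6, which is mm10), 5′ to 3′ on the gene's strand. Capitals mark 3 motifs searched on both strands: the core of the sterol regulatory element (TCACNCCAC), the CCAAT box (CCAAT or ATTGG) and the GC box (GGGCGG or CCGCCC).
Hmgcs1: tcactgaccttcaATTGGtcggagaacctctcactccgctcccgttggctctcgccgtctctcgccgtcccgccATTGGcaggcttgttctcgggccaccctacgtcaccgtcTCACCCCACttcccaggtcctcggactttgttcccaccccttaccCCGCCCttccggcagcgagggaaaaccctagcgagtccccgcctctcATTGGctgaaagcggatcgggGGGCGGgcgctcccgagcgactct
Msmo1: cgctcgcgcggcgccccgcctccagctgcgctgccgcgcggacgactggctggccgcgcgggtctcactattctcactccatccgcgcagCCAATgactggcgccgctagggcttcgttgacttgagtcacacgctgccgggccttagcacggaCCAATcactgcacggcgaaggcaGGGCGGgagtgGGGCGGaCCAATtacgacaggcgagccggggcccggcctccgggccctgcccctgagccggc
Insig1: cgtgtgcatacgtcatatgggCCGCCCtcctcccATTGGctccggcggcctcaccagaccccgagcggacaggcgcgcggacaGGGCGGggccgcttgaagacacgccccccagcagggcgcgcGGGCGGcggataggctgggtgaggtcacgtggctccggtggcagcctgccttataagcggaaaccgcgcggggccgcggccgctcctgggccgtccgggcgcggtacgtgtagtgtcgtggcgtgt
Npc1l1: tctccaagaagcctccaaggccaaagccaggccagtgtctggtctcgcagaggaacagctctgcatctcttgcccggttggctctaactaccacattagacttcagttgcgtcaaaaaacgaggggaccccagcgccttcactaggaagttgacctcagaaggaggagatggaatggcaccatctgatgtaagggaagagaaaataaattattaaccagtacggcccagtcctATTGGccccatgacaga
These windows lie at chr13:119690101-119690350, plus strand for Hmgcs1, chr8:64733579-64733828, minus strand for Msmo1, chr5:28071162-28071411, plus strand for Insig1 and chr11:6230246-6230495, minus strand for Npc1l1. Windows were held for 24 of 29 members (not for Fdps, Fdft1, Sqle, Stard4 and Soat2). The sterol regulatory element core matched in 1 of 24, in Hmgcs1 as TCACCCCAC with its first base 137 bases before the start site, against 1.05% of all 32851 windows of this length. A CCAAT box stood in 18 of 24 members and in 13 of 16 synthesis enzymes (33.8% of all windows), and a GC box in 17 of 24 members and in 14 of 16 synthesis enzymes (32.7% of all windows). Npc1l1 held 1 CCAAT box and no GC box in its window. The letters of a motif in a window describe the sequence and show no binding. Only this form of the sterol regulatory element was searched, and only in these 250 bases, so a missing match does not show that a gene lacks such an element. The Pmvk window, at chr3:89459321-89459570, lay inside the count table's gene model, which starts at 89459118.

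Abcg5 and Abcg8 are divergent neighbours, with 207 bases between them in the count table's gene models. The stretch that lies before both RefSeq start sites is shown because the levels of the 2 genes went together (chr17:84683012-84683120, plus strand, 109 bases), with its 2 GATA boxes (GATAA or TTATC) in capitals.
Abcg5-Abcg8: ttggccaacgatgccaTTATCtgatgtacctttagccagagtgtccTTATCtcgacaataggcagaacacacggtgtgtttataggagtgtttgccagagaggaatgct
A GATA box stood in 3 of 24 members' windows, in Abcg5, Abcg8 and Ggps1, and in 22.6% of all windows, and an E-box (CACGTG) in 4 of 24, in Hsd17b7, Sc5d, Insig1 and Abca1, and in 6.02% of all windows.

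Between libraries, the levels of the transporters and of the esterifying enzymes Soat1 and Soat2 differed more than those of most synthesis enzymes. The summed level of the 19 synthesis enzymes had group means of 869 to 1047 CPM and SDs within groups of 181 to 346 CPM. Per kilobase of gene model, Hmgcs1 had the highest median level of the 29 members, 62.3 CPM per kb, followed by Fdps, Msmo1, Srebf2 and Stard4. Abca1 had the lowest, 1.73 CPM per kb, with Hsd17b7 next at 4.26 CPM per kb. The ratio of the highest to the lowest library was smallest for Scap (1.66) and lay between 2.27 and 7.80 for Srebf2, Insig1, Stard4 and the synthesis enzymes other than Mvk (78.8) and Pmvk (25.9). It was 12.2 for Abcg5, 12.5 for Abcg8, 14.1 for Npc1l1, 14.9 for Soat1, 47.9 for Abca1 and 152 for Soat2. The extreme ratios of Mvk, Pmvk and Soat2 rested on S12, which held 4, 11 and 4 counts of them.

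**Figure D1:**
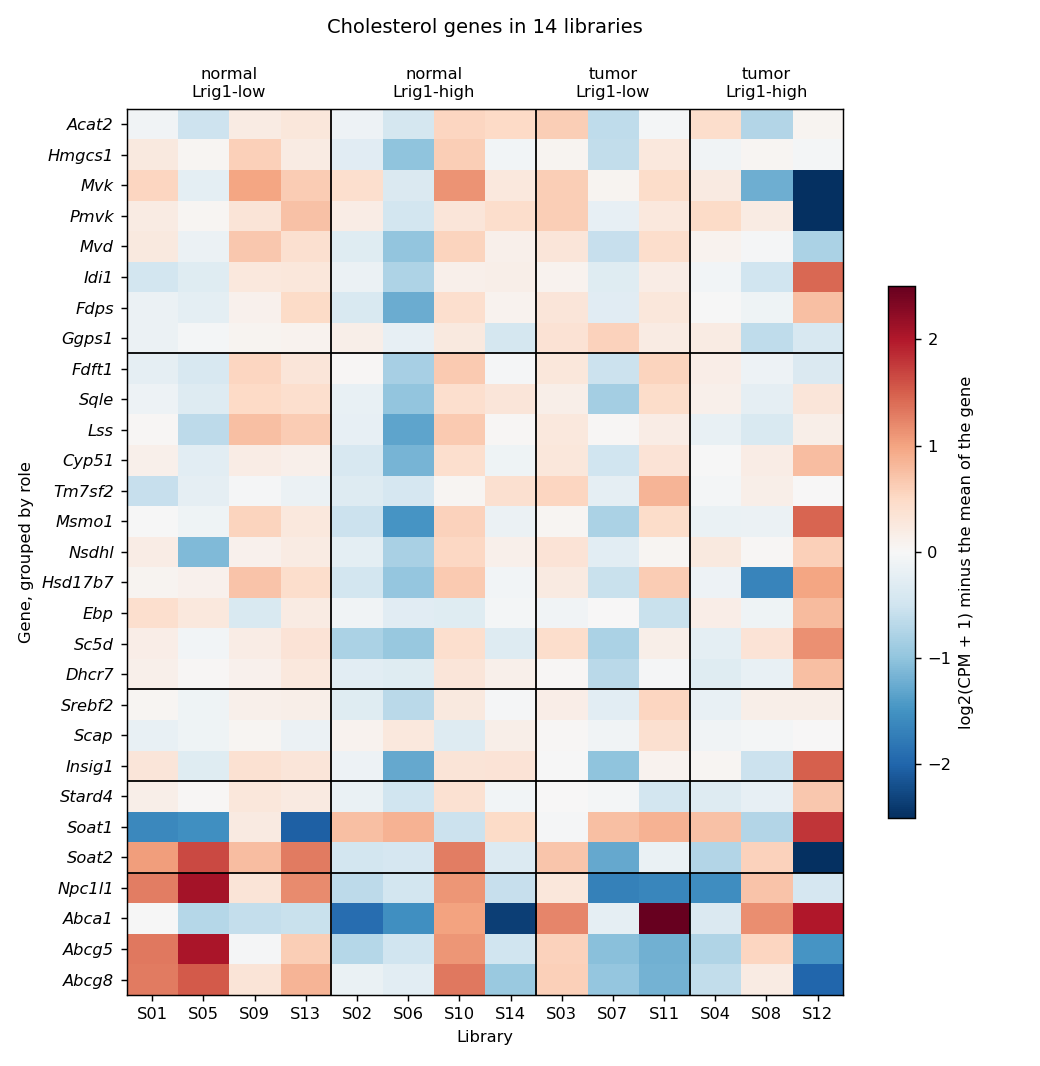
Level of each of the 29 genes (rows, grouped by role) in the 14 libraries (columns, by group), as log2(CPM + 1) minus the gene's mean over the libraries; red is above and blue below that mean. Among the synthesis enzymes S06 and S07 are mostly blue and S10 mostly red. Npc1l1, Abcg5 and Abcg8 at the bottom are highest in S01, S05, S13 and S10, and Abca1 is highest in S11 and S12.

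No member passed the threshold (adjusted p under 0.05) in edgeR's quasi-likelihood test in any of the 6 comparisons. The comparison of Lrig1-high with Lrig1-low cells called 0 of 29 members and 0% of all genes both in normal epithelium and in tumors. The comparison of tumor with normal called 0 of 29 members beside 0% of all genes in Lrig1-high cells, 0 of 29 beside 0.331% in Lrig1-low cells and 0 of 29 beside 2.22% (1.82% higher, 0.396% lower) for the average of both fractions. The interaction of sort and tissue called 0 of 29 beside 0%. At an unadjusted p under 0.05 the members counted 1, 0, 1, 5, 4 and 1 in these 6 comparisons, while the same limit held for 3.59%, 7.51%, 11.2%, 14%, 17.4% and 7.20% of all genes. DESeq2 called 1 member lower in tumor Lrig1-low cells (Npc1l1, beside 5.16% of genes called) and 1 higher in tumors on average (Abca1, beside 7.75%), and 0 elsewhere. The limma-voom fit with sample weights called 12 members in the normal sort comparison (beside 30.0% of genes), 3 in tumor against normal Lrig1-low cells (10.0%) and 1 in the average (3.95%), and 0 elsewhere. With S07, S08, S09 and S10 left out, edgeR called 3 members in the normal sort comparison (5.69%), 1 in tumor against normal Lrig1-low cells (3.23%) and 2 in the average (4.71%). With S12 left out too, it called 7 in the normal sort comparison (23.2%), 5 in tumor against normal Lrig1-low cells (14.2%) and 2 in the average (5.89%). S12 is a tumor library and lies outside the normal sort comparison. There the Npc1l1 difference was -2.12 with S12 and -2.14 without it, while its edgeR adjusted p went from 0.0405 to 0.00794. The libraries S07 to S10 were picked by their Lrig1 level after the data were seen, so the counts without them are no independent evidence. No member's 2 groups stood apart without overlap in the normal sort comparison (1.63% of all genes did so higher and 1.21% lower) or in tumor against normal Lrig1-high cells (3.37% higher, 5.02% lower), 0 did so higher and 1 lower in the tumor sort comparison (2.21% and 5.24%), and 1 did so higher and 4 lower in tumor against normal Lrig1-low cells (9.95% and 8.39%).

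In the normal epithelium, 16 of 19 synthesis enzymes had a lower mean in Lrig1-high than in Lrig1-low cells by the fitted log2 fold change, beside 48.8% of all genes tested. The median was -0.203 over the 19 enzymes beside 0.013 over all genes tested. That median was -0.273 without S07 to S10, -0.357 without S10, -0.063 without S13 and -0.039 without S06. The summed level of the 19 enzymes was 966, 825, 1230.0 and 1141 CPM in the normal Lrig1-low libraries and 766, 476, 1304 and 930.5 CPM in the normal Lrig1-high libraries. It was 1071, 658 and 1141 CPM in the tumor Lrig1-low libraries and 919, 866 and 1355 CPM in the tumor Lrig1-high libraries. The 4 groups overlapped, with S06 lowest and S12 highest of all. The 4 libraries numbered S09 to S12 lay at 1141 to 1355 CPM and the 8 numbered S01 to S08 at 476 to 1071 CPM. S13 lay at 1141 CPM and S14 at 930.5 CPM. The labels do not say whether neighbouring numbers share an animal or a day, and this was not tested. S06 held the lowest level of 10 of the 19 enzymes and was among the 3 lowest libraries in 16, S07 was among the 3 lowest in 13, and S10 was among the 3 highest in 14. S06 and S07 also had 2 of the 4 highest sums of the 10 stem cell markers, 8039 and 7315 CPM, and S10 had the lowest, 409.8 CPM. The others of the 4 highest, S02 and S04 with 7794 and 7380.0 CPM, were among the 3 lowest libraries for 6 and 1 of the enzymes, and S05, with a marker sum of 526 CPM, had an enzyme sum of 825 CPM. Whether the markers bear on the enzymes was not tested. In the tumor comparisons the medians of the 19 enzymes were 0.109 in Lrig1-high cells and -0.127 in Lrig1-low cells, beside -0.043 and 0.022 for all genes. Both changed sign or size with single libraries. The Lrig1-high median was -0.033 without S06 and 0.448 without S07 to S10, and the Lrig1-low median was 0.143 without S07, 0.007 without S09 and 0.219 without S07 to S10.

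Hmgcs1, the HMG-CoA synthase of the mevalonate arm, was the most abundant member per kilobase. Hmgcs1 stood at 234, 205, 300.0 and 228 CPM in the normal Lrig1-low libraries and at 162, 97.5, 304 and 188 CPM in the normal Lrig1-high libraries. The tumor libraries held 207, 128 and 237 CPM in Lrig1-low cells and 185, 204 and 192 CPM in Lrig1-high cells. S10 and S09 were highest and S06 lowest, and all groups overlapped. The fitted difference between normal Lrig1-high and Lrig1-low cells was -0.36 ± 0.30 (log2, SE; adjusted p = 1), with means of 188 ± 86.4 and 242 ± 40.8 CPM (SD, n = 4 each). It was -0.56 without S07 to S10 (adjusted p = 0.198), -0.70 without S10, -0.22 without S09 and -0.15 without S06, and the weighted limma-voom fit called it at -0.63 (adjusted p = 0.0272).

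Mvk phosphorylates mevalonate, and its tumor Lrig1-high level was low in 2 of 3 libraries. Mvk stood at 22.3, 12.4, 30.8 and 23.9 CPM in the normal Lrig1-low libraries and at 20.4, 11.4, 34.1 and 18.1 CPM in the normal Lrig1-high libraries. Tumor Lrig1-low libraries gave 23.4, 15.8 and 21.1 CPM and tumor Lrig1-high libraries 17.8, 5.84 and 0.432 CPM. The last value, in S12, stood for 4 counts, and S08 was the next lowest. Tumor minus normal in Lrig1-high cells was -1.38 ± 0.75 on the log2 scale (adjusted p = 0.498). It was -0.84 without S12, -2.73 without S04, -0.82 without S07 to S10 and 0.11 without those and S12. Pmvk, the next kinase, stood at 1.19 CPM (11 counts) in S12 and at 12.98 to 30.8 CPM in the other libraries.

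Ggps1 makes geranylgeranyl diphosphate on a branch away from cholesterol. Ggps1 stood at 13.7, 14.6, 16.1 and 16.2 CPM in the normal Lrig1-low libraries and at 16.97, 13.1, 18.1 and 10.9 CPM in the normal Lrig1-high libraries. Levels in the tumor fractions were 19.7, 23.1 and 17.8 CPM (Lrig1-low) and 17.8, 9.40 and 11.3 CPM (Lrig1-high). The gap between the tumor fractions was small, with 17.77 CPM in S11 (Lrig1-low) and 17.76 CPM in S04 (Lrig1-high). It was the only member whose groups did not overlap between the tumor fractions, lower in Lrig1-high cells, where 5.24% of all genes separated in that direction. It also separated in Lrig1-low cells, higher in tumor than in normal, where 9.95% of genes did. The tumor sort difference was -0.65 ± 0.31 (adjusted p = 0.655) and was -0.30 without S07 to S10 and -0.07 without those and S12.

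The other enzymes of this arm gave no separation between groups. Acat2, which joins 2 acetyl-CoA, ranged from 7.57 to 20.8 CPM, Mvd, the mevalonate diphosphate decarboxylase, from 8.54 to 29.2 CPM, Idi1, the isopentenyl diphosphate isomerase, from 20.3 to 97.5 CPM, and Fdps, the farnesyl diphosphate synthase, from 28.9 to 117 CPM. The lowest library was S06 for Mvd, Idi1 and Fdps and S08 for Acat2. Idi1 and Fdps were highest in S12.

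In the squalene and sterol arm, Ebp and Sc5d had the smallest p-values. Both act late, Ebp as the isomerase that shifts a double bond of the sterol ring. Ebp stood at 47.04, 42.1, 26.7 and 40.7 CPM in the normal Lrig1-low libraries and at 32.9, 28.6, 28.3 and 33.7 CPM in the normal Lrig1-high libraries. The Lrig1-low libraries of tumors stood at 32.9, 35.1 and 23.6 CPM and the Lrig1-high libraries at 39.7, 32.7 and 61.8 CPM. S12 was the highest library and S11 the lowest. Ebp was the member with the smallest p for the interaction of sort and tissue, 0.89 ± 0.37 (unadjusted p = 0.0296, adjusted p = 0.685). The sort difference was 0.55 ± 0.28 in tumors (adjusted p = 0.664), and tumor minus normal was 0.54 ± 0.26 in Lrig1-high cells (adjusted p = 0.458). Without S12 the 3 values were 0.60, 0.28 and 0.20, and without S07 to S10 they were 1.33, 0.90 and 0.70.

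Sc5d, the lathosterol oxidase, adds a double bond in the next step. Sc5d stood at 49.6, 42.1, 50.4 and 56.6 CPM in the normal Lrig1-low libraries and at 25.2, 22.4, 60.1 and 35.3 CPM in the normal Lrig1-high libraries. In tumors, its level was 60.6, 25.4 and 49.4 CPM in the Lrig1-low libraries and 37.5, 56.8 and 98.8 CPM in the Lrig1-high libraries. In the normal Lrig1-high group S10 stood above the 3 others, and S12 was again the highest library. Tumor minus normal in Lrig1-high cells was 0.85 ± 0.39 (adjusted p = 0.44), and 0.37 without S12 or 1.32 without S07 to S10. The interaction was 0.99 ± 0.56 (adjusted p = 0.706), and 0.56 without S12, 1.18 without S07 to S10 and 0.29 without all 5.

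Msmo1, the methylsterol monooxygenase, had the highest level per kilobase in this arm. Msmo1 stood at 90.3, 84.3, 133 and 109 CPM in the normal Lrig1-low libraries and at 62.1, 32.04, 136 and 81.9 CPM in the normal Lrig1-high libraries. The tumor libraries held 94.1, 51.6 and 124 CPM in Lrig1-low cells and 80.5, 81.4 and 249.9 CPM in Lrig1-high cells. The tumor Lrig1-high group held one library, S12, above all others. Tumor minus normal in Lrig1-high cells was 0.82 ± 0.48 (adjusted p = 0.521) with S12 and 0.03 without it. It was 1.51 without S07 to S10 (adjusted p = 0.237) and 0.47 without those and S12.

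Of the remaining 8 enzymes of the arm, Fdft1 (squalene synthase), Sqle (squalene epoxidase), Lss (lanosterol synthase) and Cyp51 (lanosterol demethylase) were lowest in S06, at 40.4, 35.5, 13.2 and 45.4 CPM. Their highest levels were 115 CPM in S10, 102 CPM in S09, 59.0 CPM in S09 and 177 CPM in S12. Nsdhl, which takes part in removing the C4 methyl groups, ranged from 10.4 CPM in S05 to 36.0 CPM in S12, and Hsd17b7, the ketoreductase of the same complex, from 5.11 CPM in S08 to 36.9 CPM in S12. Tm7sf2, a sterol C14 reductase, ranged from 6.52 CPM in S01 to 19.3 CPM in S11, and tumor minus normal in Lrig1-low cells was 0.74 ± 0.35 (adjusted p = 0.38). The value was 0.47 without S11, 1.06 without S07 to S10 (adjusted p = 0.19) and 1.09 without those and S12 (adjusted p = 0.0458). Dhcr7, the last reductase before cholesterol, ranged from 20.98 CPM in S07 to 57.6 CPM in S12. Its tumor Lrig1-low libraries, at 34.4, 20.98 and 33.2 CPM, all lay below the normal Lrig1-low libraries, at 37.3, 34.8, 36.8 and 41.1 CPM. It was 1 of 4 members that separated in that direction, with Stard4, Soat2 and Npc1l1, where 8.39% of all genes did.

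**Figure D2:**
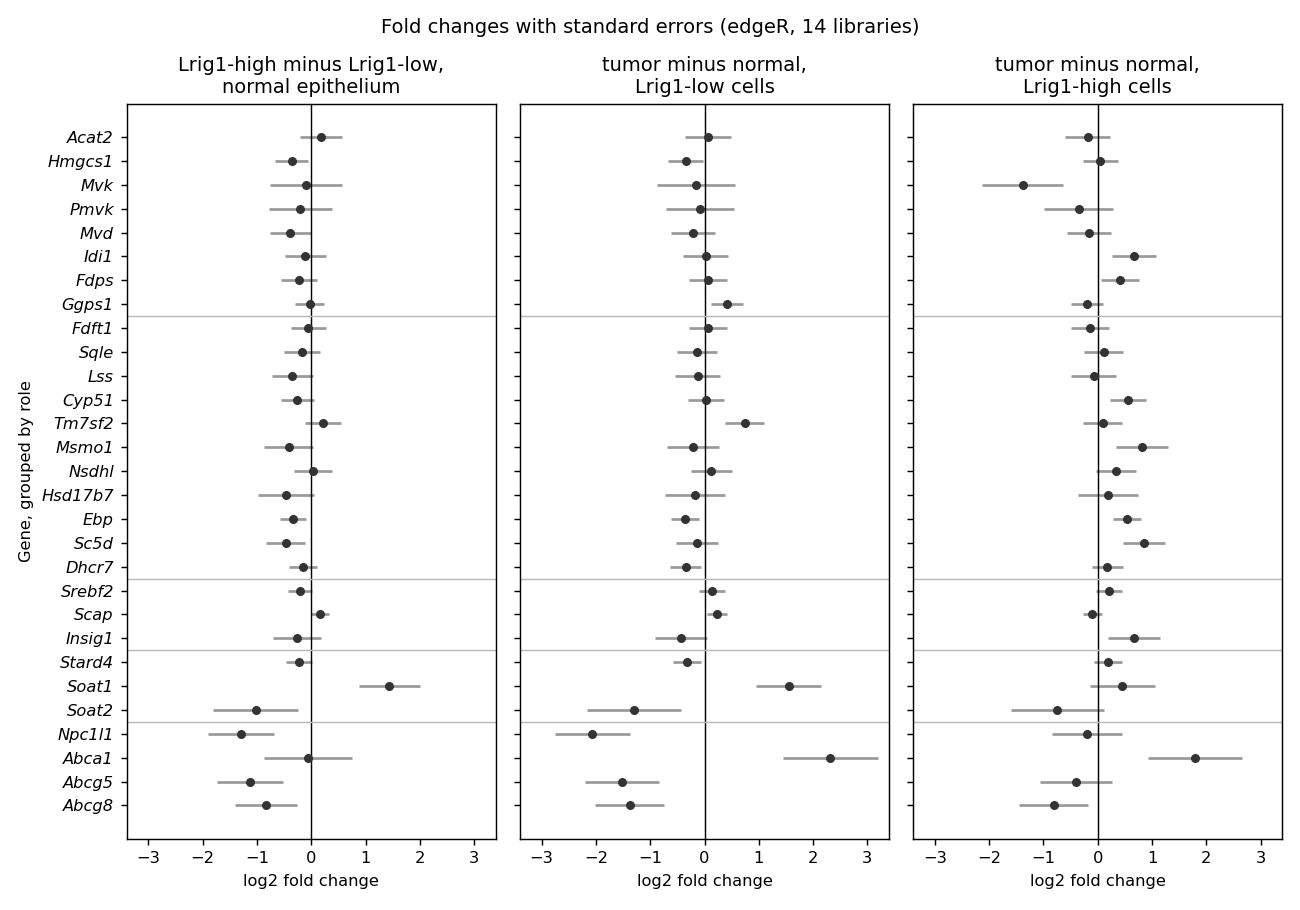
Fitted log2 fold change (points) with its standard error (bars) of each of the 29 genes in 3 comparisons, with all 14 libraries in the fit. The 19 synthesis enzymes have a median of -0.203, -0.127 and 0.109 in the panels from left to right, with Mvk at -1.38 in the last. The gene farthest from 0 is Soat1 in the left panel (1.44) and Abca1 in the other two (2.31 and 1.79), and no gene passed the threshold.

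Srebf2 encodes the transcription factor of the pathway. Srebf2 stood at 198, 177, 209.7 and 212 CPM in the normal Lrig1-low libraries and at 155, 120.2, 227 and 188 CPM in the normal Lrig1-high libraries. Tumor Lrig1-low libraries gave 216, 159.6 and 279.7 CPM and tumor Lrig1-high libraries 168, 213 and 213 CPM. All 4 groups overlapped, with S06 lowest and S11 highest. Tumor minus normal over both fractions was 0.17 ± 0.17 (adjusted p = 0.674), from 0.06 without S11 to 0.25 without S07 or S10, and 0.32 without S07 to S10. Scap, the escort protein, had the smallest spread of the members, by its coefficient of variation. Scap stood at 47.4, 49.9, 56.1 and 48.99 CPM in the normal Lrig1-low libraries and at 57.3, 65.2, 43.1 and 59.9 CPM in the normal Lrig1-high libraries. Levels in the tumor fractions were 55.4, 50.9 and 71.4 CPM (Lrig1-low) and 51.1, 52.4 and 54.3 CPM (Lrig1-high). Its interaction of sort and tissue was -0.33 ± 0.26 (adjusted p = 0.751), and -0.17 without S11, -0.54 without S07 to S10 and -0.63 without those and S12.

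Insig1 holds SCAP in the endoplasmic reticulum when sterol is plentiful. Insig1 stood at 73.5, 47.7, 77.7 and 73.2 CPM in the normal Lrig1-low libraries and at 53.8, 23.8, 74.3 and 74.8 CPM in the normal Lrig1-high libraries. The Lrig1-low libraries of tumors stood at 58.6, 28.98 and 63.2 CPM and the Lrig1-high libraries at 61.4, 40.3 and 169 CPM. S12 stood above every other library, and S06 and S07 were lowest. The tumor sort difference of 0.84 ± 0.51 (adjusted p = 0.705) was 0.06 without S12, 0.97 without S07 to S10 and 0.02 without all 5.

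Across the 14 libraries the levels of Srebf2 and its target Hmgcs1 went together (log2(CPM + 1), Pearson r = 0.82, permutation p = 0.0004, adjusted 0.0006; Spearman rho = 0.78, permutation p = 0.002, adjusted 0.003). Without the 2 libraries farthest from the Srebf2 median (S06 and S11) r was 0.76, with each group's mean removed it was 0.91, and over the 10 libraries without S07 to S10 it was 0.87. Insig1 and Hmgcs1 gave r = 0.64 (adjusted permutation p = 0.02) and rho = 0.57 (adjusted permutation p = 0.048), r = 0.75 without S06 and S12, 0.65 with group means removed, 0.86 without S12 alone and 0.63 without S07 to S10. Srebf2 and Insig1 gave r = 0.60 (adjusted permutation p = 0.02) and rho = 0.46 (adjusted permutation p = 0.1), 0.50 without S06 and S11, 0.70 with group means removed and 0.63 without S07 to S10. The relation of Srebf2 and Insig1 did not hold by rank. These were 3 of 6 pairs computed, chosen with earlier results of these data known, and libraries share depth, cell makeup and any batch.

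**Figure D3:**
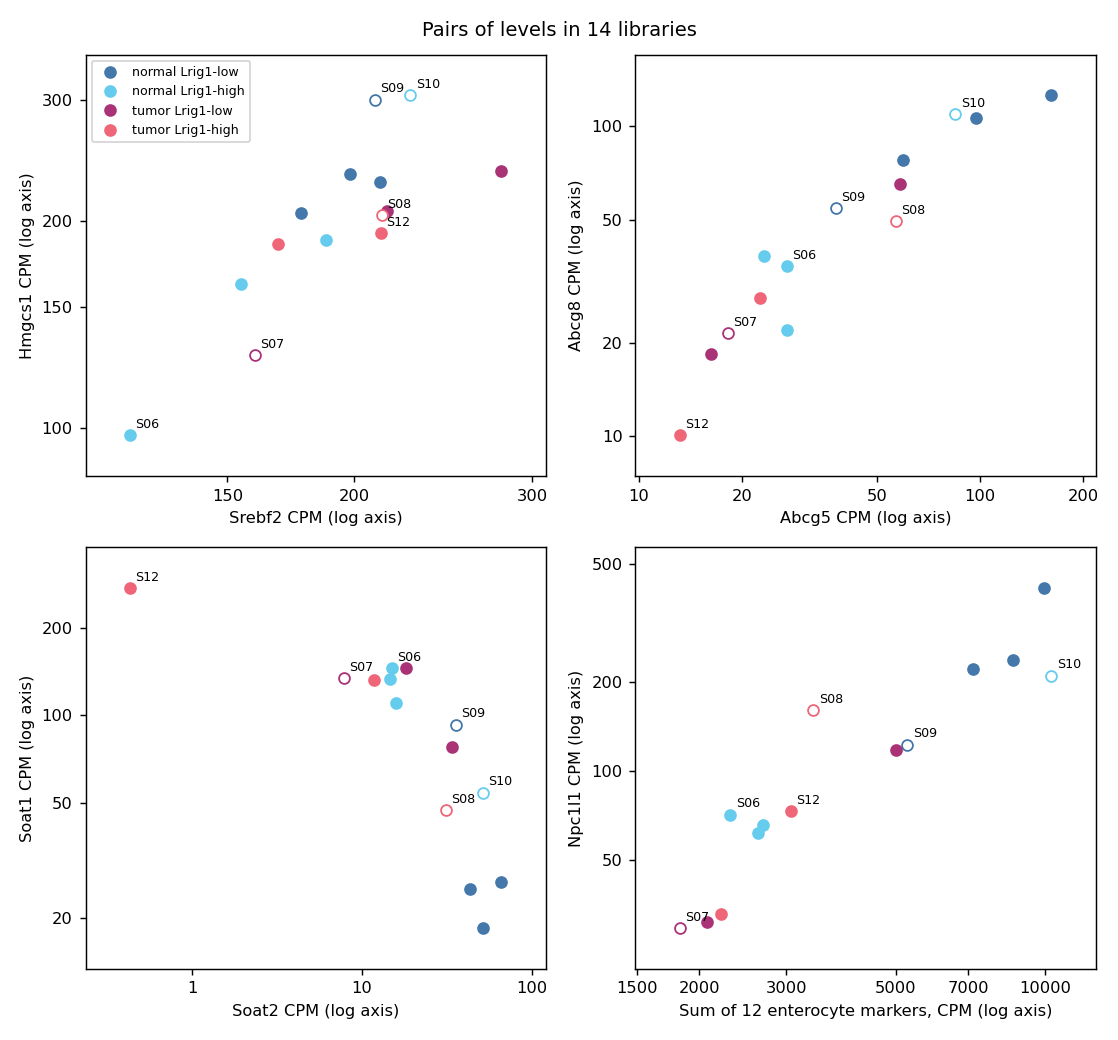
Level of 1 gene against another, or of Npc1l1 against the summed level of 12 enterocyte markers, in the 14 libraries, in CPM on log axes. Points are colored by group, and open points are the 4 libraries picked by their Lrig1 level (S07 to S10). Srebf2 and Hmgcs1 (r = 0.82) and Abcg5 and Abcg8 (r = 0.95) go up together, and Soat1 is low where Soat2 is high (r = -0.82).

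Stard4 carries cholesterol between membranes. Stard4 stood at 107, 98.4, 117 and 112 CPM in the normal Lrig1-low libraries and at 85.4, 68.1, 125 and 91.5 CPM in the normal Lrig1-high libraries. In tumors, its level was 96.5, 93.4 and 70.1 CPM in the Lrig1-low libraries and 76.2, 83.4 and 155 CPM in the Lrig1-high libraries. The tumor Lrig1-low libraries lay below all normal Lrig1-low libraries, and S12 was highest. The interaction of sort and tissue was 0.51 ± 0.36 (adjusted p = 0.74), and 0.12 without S12, 0.88 without S07 to S10 and 0.25 without all 5.

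The 2 enzymes that esterify cholesterol had opposite patterns. Soat1 is found in most tissues, and Soat2 in the absorptive cells of the intestine and in liver. Soat1 stood at 25.2, 26.8, 92.98 and 18.5 CPM in the normal Lrig1-low libraries and at 133, 146, 54.2 and 110.4 CPM in the normal Lrig1-high libraries. The tumor libraries held 77.7, 135 and 146 CPM in Lrig1-low cells and 132, 47.2 and 275 CPM in Lrig1-high cells. Among the normal libraries S01, S05 and S13 were lowest for Soat1, and S09 and S10 stood apart from their own groups toward the other one. Soat2 stood at 43.04, 65.95, 35.6 and 51.4 CPM in the normal Lrig1-low libraries and at 14.6, 14.9, 51.2 and 15.8 CPM in the normal Lrig1-high libraries. Tumor Lrig1-low libraries gave 33.7, 7.82 and 18.1 CPM and tumor Lrig1-high libraries 11.8, 30.9 and 0.432 CPM. S01, S05, S13 and S10 were the 4 libraries at 43.0 CPM or above, and S12, with 4 counts, was lowest. Over the 14 libraries Soat1 and Soat2 gave r = -0.82 (adjusted permutation p = 0.00014) and rho = -0.85 (adjusted permutation p = 0.0006), r = -0.86 without S01 and S13, -0.79 with group means removed, -0.85 without S12 and -0.84 without S07 to S10.

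For Soat1, Lrig1-high minus Lrig1-low in normal epithelium was 1.44 ± 0.57 (unadjusted p = 0.0247, adjusted p = 1), and 3 of 4 Lrig1-high libraries lay above every Lrig1-low library. Without S07, S08, S09 and S10 it was 2.48 ± 0.33 (adjusted p = 0.0064), and without S09 alone 2.26 (adjusted p = 0.348). The weighted limma-voom fit gave 2.30 (adjusted p = 0.00382). Tumor minus normal was 1.55 ± 0.60 in Lrig1-low cells (adjusted p = 0.262) and 0.999 ± 0.42 over both fractions (adjusted p = 0.241), and it was 2.23 ± 0.35 (adjusted p = 0.013) and 1.45 ± 0.24 (adjusted p = 0.0119) without those 4 libraries. Without S12 alone the value over both fractions was 0.59 (adjusted p = 0.488), and limma-voom called the Lrig1-low difference at 1.87 (adjusted p = 0.00931). For Soat2, tumor minus normal over both fractions was -1.02 ± 0.61 (adjusted p = 0.421), and -1.63 without S08, -1.15 without S07 to S10 and -0.59 in the weighted limma-voom fit. The summed level of the 10 stem cell markers was 711, 526, 2619 and 497 CPM in the normal Lrig1-low libraries and 7794, 8039, 409.8 and 5897 CPM in the normal Lrig1-high libraries. In tumors that sum was 967, 7315 and 1373 CPM in the Lrig1-low and 7380.0, 752 and 4702 CPM in the Lrig1-high libraries. Its part in the Soat1 levels was not tested. In these sorted pools, fewer cells of a type and less RNA per cell cannot be told apart.

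Npc1l1 and the Abcg5-Abcg8 pair, which move sterol across the brush border in opposite directions, were highest in the same libraries. Npc1l1 stood at 238, 415, 122 and 221 CPM in the normal Lrig1-low libraries and at 61.4, 70.9, 209.6 and 65.3 CPM in the normal Lrig1-high libraries. Levels in the tumor fractions were 118, 29.3 and 30.7 CPM (Lrig1-low) and 32.6, 159.8 and 72.9 CPM (Lrig1-high). S05 was highest. All 3 tumor Lrig1-low libraries lay below every normal Lrig1-low library, the nearest values being 118 CPM in S03 and 122 CPM in S09. Tumor minus normal in Lrig1-low cells was -2.07 ± 0.69 (unadjusted p = 0.00979, adjusted p = 0.178), with means of 59.3 ± 50.6 CPM (SD, n = 3) and 249 ± 122 CPM (SD, n = 4). DESeq2 gave -2.07 (adjusted p = 0.035) and the weighted limma-voom fit -1.66 (adjusted p = 0.0357). In edgeR it was -1.97 without S07 to S10 (adjusted p = 0.107) and -1.96 without those and S12 (adjusted p = 0.0332). Over both fractions it was -1.14 ± 0.47 (adjusted p = 0.226), and -1.14 without S07 to S10.

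Lrig1-high minus Lrig1-low cells of normal epithelium gave -1.29 ± 0.60 for Npc1l1 (adjusted p = 1). The Lrig1-high libraries S02, S06 and S14 lay between 61.4 and 70.9 CPM, and S10 stood at 210 CPM. Without S07 to S10 the difference was -2.12 ± 0.50 (adjusted p = 0.0405), and limma-voom gave -1.85 (adjusted p = 0.00422). The interaction of sort and tissue was 1.87 ± 0.92 (adjusted p = 0.687), and 1.12 without S08, 2.85 without S03, 1.67 without S07 to S10 and 0.96 without those and S12.

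Abcg5 and Abcg8, whose products form 1 transporter, are described library by library although their p-values did not select them, a choice made after their values were seen. Abcg5 stood at 97.1, 162, 37.8 and 59.5 CPM in the normal Lrig1-low libraries and at 23.3, 27.1, 84.6 and 27.1 CPM in the normal Lrig1-high libraries. The Lrig1-low libraries of tumors stood at 58.3, 18.2 and 16.2 CPM and the Lrig1-high libraries at 22.6, 56.5 and 13.2 CPM. Abcg8 stood at 107, 126, 54.4 and 78 CPM in the normal Lrig1-low libraries and at 38.2, 35.4, 109 and 22.1 CPM in the normal Lrig1-high libraries. In tumors, its level was 65.2, 21.6 and 18.4 CPM in the Lrig1-low libraries and 27.8, 49.5 and 10.1 CPM in the Lrig1-high libraries. The high libraries were the same as for Npc1l1: S05, S01, S10 and S13 held the 4 highest levels of each gene. Tumor minus normal in Lrig1-low cells was -1.52 ± 0.68 for Abcg5 (adjusted p = 0.334) and -1.38 ± 0.64 for Abcg8 (adjusted p = 0.355), and -2.40 and -2.23 without S03 or -1.51 and -1.31 without S07 to S10. Over both fractions the values were -0.96 ± 0.47 (adjusted p = 0.317) and -1.10 ± 0.45 (adjusted p = 0.221), beside -1.005 and -1.01 without S07 to S10 and -0.42 and -0.54 in the weighted limma-voom fit. The normal sort difference of Abcg5 was -1.13 ± 0.61 (adjusted p = 1), and -2.02 (adjusted p = 0.0497) without S07 to S10, -1.78 without S10, -0.66 without S05 and -1.60 (adjusted p = 0.00889) in limma-voom.

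**Figure D4:**
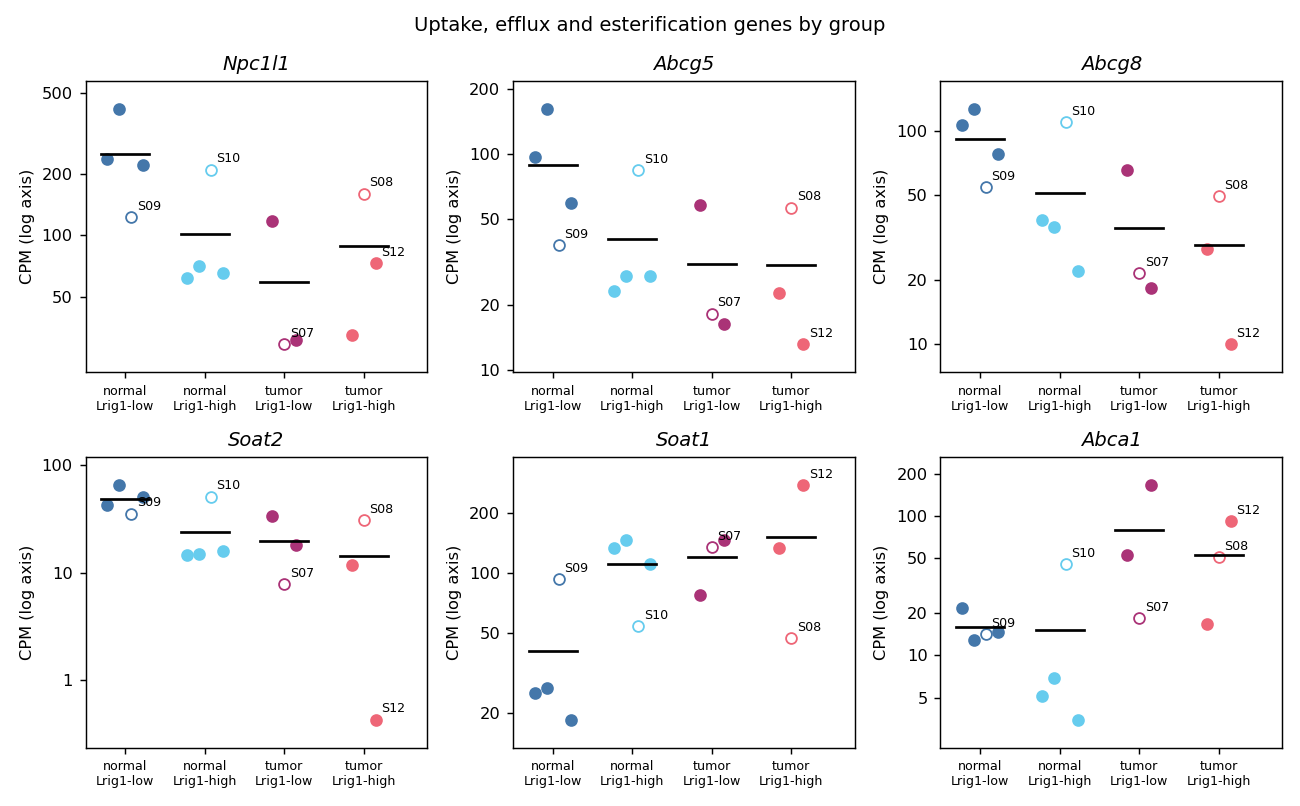
Level in CPM (log axis) of the genes of uptake, efflux and esterification in each library (points) by group, with the group mean (bar). Open points are the 4 libraries picked by their Lrig1 level (S07 to S10). Npc1l1, Abcg5, Abcg8 and Soat2 are highest in S01, S05, S13 and S10, Soat1 is lowest in S13, S01 and S05, and Abca1 is highest in S11 at 167 CPM.

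Across the 14 libraries Abcg5 and Abcg8 gave r = 0.95 and rho = 0.96 (adjusted permutation p = 3e-05 and 6e-05), 0.94 without S01 and S05, 0.93 with group means removed and 0.95 without S07 to S10. Npc1l1 and Abcg5 gave r = 0.92 and rho = 0.88 (adjusted permutation p = 3e-05 and 0.0003), 0.88 without S05 and S07, 0.88 with group means removed and 0.91 without S07 to S10. The smallest unadjusted p that the 100000 permutations can give is 1e-05. All 12 enterocyte markers were measured in every library, and their sum was 8620.0, 9948, 5276 and 7157 CPM in the normal Lrig1-low libraries and 2627, 2315, 10310.0 and 2696 CPM in the normal Lrig1-high libraries. In tumors the sum was 5001, 1830.0 and 2080.0 CPM in the Lrig1-low and 2211, 3408 and 3067 CPM in the Lrig1-high libraries. S10, S05, S01 and S13, highest for Abcg5 and Abcg8, were also highest for this sum. The 12 markers had a median log2 fold change of -1.218 for tumor minus normal in Lrig1-low cells and -0.802 for the normal sort, beside 0.022 and 0.013 for all genes. In the same comparisons Npc1l1, Abcg5 and Abcg8 lay between -2.07 and -1.38 and between -1.29 and -0.83, while Abca1 stood at 2.31 and -0.065. Their part in the transporter levels was not tested.

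Abca1 loads cholesterol onto apolipoprotein and is a target of the sterol-sensing receptors LXR. Abca1 stood at 21.8, 12.98, 14.3 and 14.7 CPM in the normal Lrig1-low libraries and at 5.11, 6.95, 45.3 and 3.48 CPM in the normal Lrig1-high libraries. The tumor libraries held 52.6, 18.6 and 167 CPM in Lrig1-low cells and 16.9, 50.5 and 91.1 CPM in Lrig1-high cells. The normal Lrig1-low libraries lay close together, 3 of the normal Lrig1-high libraries were at 3.48 to 6.95 CPM, and S11 and S12 were highest. Tumor minus normal over both fractions was 2.05 ± 0.62 (unadjusted p = 0.00514, adjusted p = 0.0989), the smallest adjusted p of any member. It was 2.31 ± 0.88 in Lrig1-low cells (adjusted p = 0.245), or 1.16 without S11 and 2.70 without S07 to S10 (adjusted p = 0.0675), and 1.79 ± 0.87 in Lrig1-high cells (adjusted p = 0.458), or 1.11 without S12, 3.35 without S10 and 3.39 without S07 to S10. The Lrig1-low difference passed in limma-voom at 1.84 (adjusted p = 0.0181) and in edgeR without all 5 libraries at 2.74 (adjusted p = 0.00556). DESeq2 gave 2.07 (adjusted p = 0.0131) for the average, the weighted limma-voom fit 2.06 (adjusted p = 0.0202), and edgeR 3.05 ± 0.48 (adjusted p = 0.00933) without S07 to S10. Leaving out S10 alone gave 2.83 (adjusted p = 0.00999) and leaving out S04 alone 2.26 (adjusted p = 0.0482), but 1.68 (adjusted p = 0.175) without S12. Over all single libraries left out, the value for the average ran from 1.48 to 2.83. The endothelial gene Cdh5 reached 155 CPM in S11 and was at 32.0 CPM in S03, 30.2 CPM in S10, 26.6 CPM in S12 and 24.4 CPM in S08, libraries in which Abca1 was also high. Of the other defining endothelial genes Emcn was at 0 in all 14 libraries, Kdr at 0 in 12 and Pecam1 at no more than 1.85 CPM. Pecam1 was at 0 in S08 and S12 and highest in S09, where Abca1 was at 14.3 CPM. The summed level of the 8 endothelial markers was 3.42 to 8.39 CPM in the normal Lrig1-low, 5.57 to 41.1 CPM in the normal Lrig1-high, 20.9 to 198 CPM in the tumor Lrig1-low and 9.04 to 38.1 CPM in the tumor Lrig1-high libraries. Cdh5 alone made up 155 of 198 CPM of that sum in S11 and 26.6 of 28.2 CPM in S12, so the sum mostly followed 1 gene there. Sums of other marker lists were also high in some of these libraries. The fibroblast sum was highest in S11 (27.1 CPM), S10 (10.2 CPM) and S03 (7.39 CPM), but was 0.73 CPM in S08 and 0.541 CPM in S12. The leukocyte sum was highest in S08 (57.2 CPM), and was 6.89 CPM in S11 and 3.46 CPM in S12. The part of all these markers in the Abca1 levels was not tested.

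Genes that neighbour the module in the pathway were counted from 5 lists: SREBP processing and degradation (13 genes), transport of cholesterol within the cell (16), nonsterol products of mevalonate (14), fatty acid synthesis (14) and oxysterol and bile acid enzymes (4 of 6 tested, with Ch25h and Cyp7b1 at 0 in every library). Acly is the ATP citrate lyase that supplies acetyl-CoA to both sterol and fatty acid synthesis. It was the only gene of these lists that edgeR's test called in any of the 6 comparisons. Acly stood at 87.5, 82.5, 128 and 102 CPM in the normal Lrig1-low libraries and at 125, 116, 107 and 142 CPM in the normal Lrig1-high libraries. Tumor Lrig1-low libraries gave 144, 192 and 182 CPM and tumor Lrig1-high libraries 184, 158 and 155 CPM. Every tumor library lay above every normal library, the nearest values being 144 CPM in S03 and 142 CPM in S14. The share of all genes that separated in this way was not counted, and Acly is described because it was called between these same libraries. The separation is thus no separate support for the call. Acly rose in tumors over both fractions by 0.61 ± 0.13 (adjusted p = 0.0359), as 1 of 14 fatty acid genes, while 1.82% of all genes were called higher. Leaving out 1 library at a time took its adjusted p to between 0.0277 and 0.104 and ended the call in 9 of 14 cases (S01, S02, S05, S06, S07, S11, S12, S13 and S14), with values of 0.54 to 0.66. Without S07 to S10 the value was 0.63 (adjusted p = 0.0264), with no filter on low counts 0.57 (adjusted p = 0.0724) and with S15 included 0.54 (adjusted p = 0.251). Of the 14 fatty acid genes, DESeq2 called 1 in tumor against normal Lrig1-low cells (5.16% of all genes) and 2 in the average (7.75%). The weighted limma-voom fit called 8 of them in the normal sort comparison (30.0% of all genes). It called 1 in tumor against normal Lrig1-low cells (10.0%) and 1 in the average (3.95%).

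In the other 4 lists, with 47 genes tested, 0 genes passed in edgeR's test, which called 0.331% of all genes in tumor against normal Lrig1-low cells, 2.22% in the average and 0% elsewhere. At an unadjusted p under 0.05 they counted 1 in each of the 2 sort comparisons, 8, 6 and 11 for tumor against normal in Lrig1-high cells, in Lrig1-low cells and on average, and 4 for the interaction. That limit held for 3.59% and 7.51% of all genes in the normal and tumor sort comparisons, 11.2%, 14% and 17.4% for tumor against normal in the order above, and 7.20% for the interaction. DESeq2 called 2 of them in tumor against normal Lrig1-low cells (5.16% of all genes) and 4 in the average (7.75%). The weighted limma-voom fit called 15 in the normal sort comparison (30.0%), 4 in tumor against normal Lrig1-low cells (10.0%) and 1 in the average (3.95%). The gene with the smallest p of each list is given. Gramd1a, which moves cholesterol from the plasma membrane to the endoplasmic reticulum, was at 1.47, 1.25, 5.88 and 1.71 CPM in the normal Lrig1-low libraries and at 13.2, 11.7 and 32.3 CPM in the tumor Lrig1-low libraries. Its difference was 2.88 ± 0.63 (adjusted p = 0.0607). DESeq2 and the weighted limma-voom fit called it, at 2.90 (adjusted p = 0.00041) and 3.10 (adjusted p = 0.00179). So did edgeR without S07 to S10 at 3.91 (adjusted p = 0.0144), without S09 at 3.63, without S10 at 2.88, without S12 at 2.81 and with S15 included at 2.81. Erlin1, of the complex that degrades sterol-sensing proteins, gave -0.85 ± 0.28 in the same comparison (adjusted p = 0.164), and -0.75 without S07 to S10. Pdss2, of ubiquinone synthesis, gave -0.54 ± 0.20 (adjusted p = 0.186) and Hsd3b7, a bile acid enzyme, 0.57 ± 0.19 (adjusted p = 0.135) over both fractions, and -0.66 and 0.60 without S07 to S10. DESeq2 called Hsd3b7 at 0.60 (adjusted p = 0.0447).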

How the data were processed

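Per the file headers, the authors ran featureCounts 1.5.3 over RefSeq exons (mm10), counting the reverse strand, and deposited raw counts. The header names no option for fragments, multi-mapping or overlapping reads, so reads shared with near-identical copies of a gene can be lost. Trimmomatic, HISAT2, Subread and featureCounts are named in the submitters' processing notes. The library kit kept strand and was made for low inputs of total RNA, per the labels' protocols. Gene identifiers were matched to RefSeq symbols (25275 of 27179 genes). Groups came from the sample titles, and replicates carry the library number of the title.

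Counts of 14 libraries were fitted together in edgeR 4.0.16 (R 4.3.3) with TMM scaling, filterByExpr, a coefficient per group and the quasi-likelihood F test. P-values were Benjamini-Hochberg adjusted over all 13883 genes tested, with calls at 0.05. Standard errors were taken as |log2 fold change|/√F, and CPM values use the TMM factors. Alternatives were DESeq2 1.42.0, limma 3.58.1 (voom with sample weights), other scalings and filters, and left-out libraries. The fits without S07 to S10, without S12 and without all 5, and the correlations without S07 to S10, were added after the data were seen. Procedures were checked on simulated counts.

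Members, lists and pairs were chosen with earlier results of these data known. Genes were described by library where they had the 2 smallest p-values of their role or the highest level per kilobase, and companion genes where called or, failing that, by the smallest p of the list. Companion lists and 11 cell type marker lists come from textbook knowledge.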

Additional observations from a re-analysis of the deposited data

Results flagged for a closer look

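In groups of 4 libraries, a level was set apart where the gap to the nearest other library was a large part of the group's range (Dixon's 95% value), which chance gives in about 1 of 20 groups. Of 58 member and group combinations 8 met it, and the tumor groups of 3 were not tested. In the normal Lrig1-high group S10 was the high library for 4 genes: Npc1l1 at 210 CPM (the others 61.4 to 70.9), Abcg5 at 84.6 CPM (the others 23.3 to 27.2), Soat2 at 51.2 CPM (the others 14.6 to 15.9) and Abca1 at 45.3 CPM (the others 3.48 to 6.95). S10 also had the highest enterocyte marker sum, 10310 CPM, and the lowest Lrig1 level, 36.4 CPM. In the normal Lrig1-low group Soat1 stood at 93.0 CPM in S09, against 18.5 to 26.8 CPM in the others. S09 had the highest stem cell marker sum of that group, 2619 CPM. S05 was the low library of the same group for Cyp51 at 86.5 CPM (the others 113 to 118), Nsdhl at 10.4 CPM (the others 25.4 to 27.3) and Insig1 at 47.7 CPM (the others 73.2 to 77.7).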

How the results depend on the processing

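The count of members called was 0 in every comparison in the fit reported. In the normal sort comparison it was 12 with limma-voom and sample weights, 3 without S07 to S10 and 7 without S07 to S10 and S12. For tumor against normal Lrig1-low cells it was 1 with DESeq2, 3 with limma-voom, 1 without S07 to S10 and 5 without those and S12. For the average over both fractions it was 1 with DESeq2, 1 with limma-voom, 2 without S07 to S10 and 2 without those and S12, and leaving out 1 library at a time gave 0 to 1 (Abca1, without S10 or S04). It was 0 under every alternative run for the other 3 comparisons, and 0 without S12 alone in all 6. The median fold change of the synthesis enzymes moved by less than the spread between replicates (SD 0.37), but that spread exceeds the medians themselves. Leaving out 1 library at a time gave -0.357 to -0.039 for the normal sort, -0.222 to 0.212 for the tumor sort, -0.033 to 0.303 in Lrig1-high cells, -0.271 to 0.143 in Lrig1-low cells, -0.108 to 0.177 for the average and 0.027 to 0.463 for the interaction. The Lrig1-low median (-0.127) was also above 0 with limma-voom (0.046), without S07 to S10 (0.219) and without those and S12 (0.242), so its sign was not stable. The fold change of Mvk for tumor against normal Lrig1-high cells turned from -1.38 to 0.11 without S07 to S10 and S12; Mvk rested on 4 counts in S12. Of 35 single-gene fold changes followed through the alternatives, this was the only one that changed sign. No paired analysis was possible because every library has its own number and the labels name no animal, day or batch. With 3 or 4 libraries a group and 5 of 14 set aside in some fits for their Lrig1 level or quality, a p that misses the threshold does not show equal levels.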
